A study of Mus musculus with 6 samples.

Results

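The genes of 10 inflammatory chemokines were followed in TRAMP-C2 cells, a line derived from a prostate tumour of the TRAMP mouse. They were taken by name (Ccl2, Ccl5, Ccl7, Ccl20, Cxcl1, Cxcl5, Cxcl10, Cxcl12, Cx3cl1 and Cxcl16), and the set was chosen in part on the rise of Ccl2, Ccl7 and Cxcl10 with the drugs in these libraries. All 10 were among the 54446 genes of the count table, and all 10 passed a filter of at least 10 counts in at least 2 libraries, which left 14956 genes for testing. Ccl20 passed it through the drug-treated libraries only. The members' changes against control are therefore given with that choice stated, and Ccl2, Ccl7 and Cxcl10 are given no p value in any comparison.

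Poly(A) RNA was sequenced from cells of C57BL/6 male origin in 3 groups of 2 libraries each. Control cells received no drug, oxaliplatin cells received 2 µM oxaliplatin and cisplatin cells received 2 µM cisplatin, each collected at 24 h and all grown in serum with added insulin and an androgen precursor. Both drugs are platinum compounds that form DNA adducts. Oxaliplatin carries a diaminocyclohexane and an oxalate ligand where cisplatin carries ammine and chloride ligands. Nothing in the labels says whether the replicates were separate cultures, so the p values measure the spread between these libraries, which may be technical, and the line is a single established one.

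Chemokines are small secreted or membrane-tethered proteins that steer leukocytes by binding G protein-coupled receptors. Those called inflammatory are switched on in stromal, epithelial and immune cells by transcription factors of the NF-κB, IRF and AP-1 families, and many of their mRNAs are short-lived because of AU-rich elements in the 3′ untranslated region. In prostate tumours CCL2 is known as an attractant of monocytes, CXCL1 and CXCL5 as attractants of neutrophils, CXCL10 as an attractant of effector T cells, and CXCL12 as a stromal factor that holds cells bearing CXCR4.

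Library totals ran from 21345312 to 24041767 counts, and a count of 0 still allows as many as 3 counts, or 0.125 to 0.141 CPM when scaled by these totals, a limit for counting error only. Values below are normalised counts, that is, counts divided by a size factor of 0.964 to 1.08, and each group mean is given ± SD over n = 2 libraries. Fold changes, standard errors (SE) and adjusted p values came from DESeq2 fitted to all 6 libraries, with Benjamini-Hochberg adjustment over all genes tested and a call at an adjusted p below 0.05. In bulk RNA, fewer cells expressing a gene and less RNA of it per cell cannot be told apart. The mesenchymal genes Vim and Col1a1 stood at 52895 to 68052 and at 95929 to 129469 normalised counts. The prostate secretory gene Pbsn and the basal keratin gene Krt5 had 0 counts in every library, so that neither transcript was detected at this depth.

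**Figure D1:**
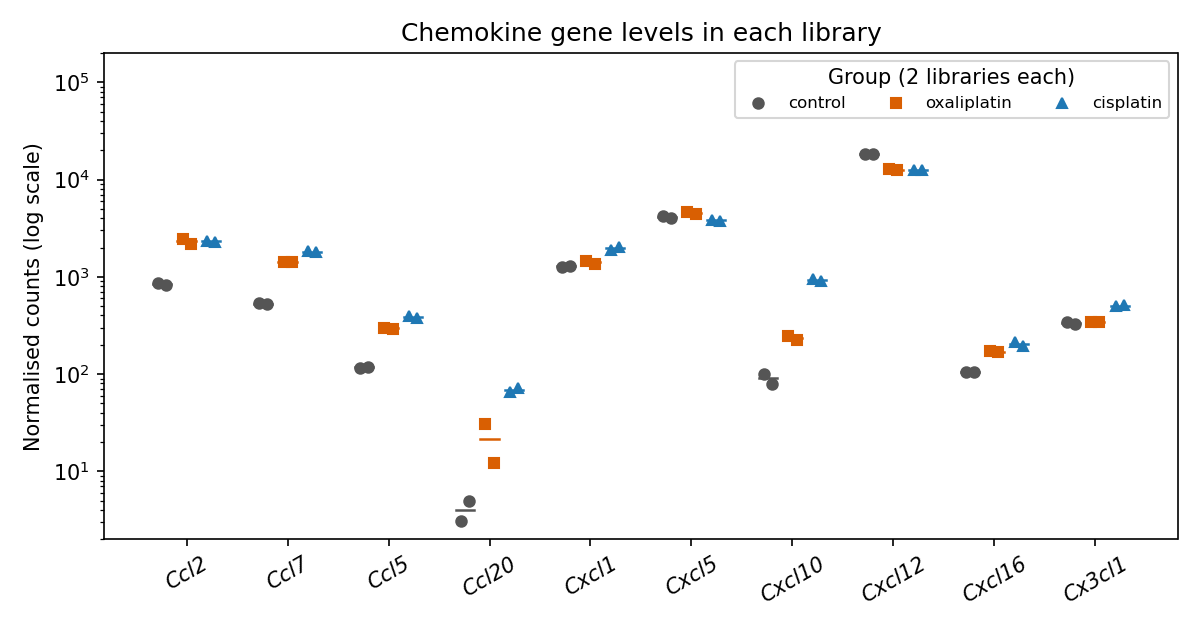
Normalised counts (log axis) of the 10 chemokine genes in each of the 6 libraries, with control as circles, oxaliplatin as squares and cisplatin as triangles, and a short line at each group mean (n = 2). Ccl2, Ccl7, Ccl5 and Cxcl10 sit higher with both drugs, Cxcl12 sits lower with both, and Ccl20 shows the widest gap between replicates, 30.6 and 12.3 with oxaliplatin.

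Ccl2 and Ccl7 encode ligands of the monocyte receptor CCR2. They are neighbours on chromosome 11 in build GRCm38 on the plus strand, Ccl2 (ENSMUSG00000035385) at chr11:82035571-82037453 and Ccl7 (ENSMUSG00000035373) at chr11:82045712-82047525, with 8258 bases between them. Ccl2 had 856 and 827 normalised counts in the control libraries, 2463 and 2159 with oxaliplatin, and 2325 and 2303 with cisplatin. All 4 drug-treated libraries lay above both controls, and the drug groups overlapped each other. The fold change of Ccl2 was 2.75 with either drug (log2 fold change 1.46 ± 0.09 SE in each comparison). Ccl7 had 534 and 522 in control, 1418 and 1415 with oxaliplatin, and 1825 and 1789 with cisplatin. For Ccl7 the 3 groups did not overlap, in the order control, oxaliplatin, cisplatin. Its log2 fold change was 1.42 ± 0.09 SE with oxaliplatin and 1.77 ± 0.08 SE with cisplatin, or 2.68-fold and 3.42-fold.

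Ccl5 (ENSMUSG00000035042, chr11:83525778-83530518, minus strand) encodes RANTES, which attracts T cells and monocytes. It had 115 and 119 normalised counts in control, 296 and 294 with oxaliplatin, and 394 and 381 with cisplatin. The replicates of Ccl5 lay close together, and no groups overlapped. Ccl5 rose on the log2 scale by 1.33 ± 0.18 SE with oxaliplatin (DESeq2 adjusted p = 4.30e-12) and by 1.72 ± 0.18 SE with cisplatin (DESeq2 adjusted p = 1.32e-20).

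Ccl20 (ENSMUSG00000026166, chr1:83116766-83119167, plus strand) encodes the ligand of CCR6, which draws Th17 cells and dendritic cells. It was close to the limit of detection in control cells, with 3 and 5 counts, against 33 and 12 counts with oxaliplatin and 67 and 70 counts with cisplatin. The groups did not overlap, but the oxaliplatin replicates stood far apart, at 30.6 and 12.3 normalised counts. Pooled over the libraries of a group, the ratio to control was 16.9 with cisplatin (95% exact Clopper-Pearson interval 8.35 to 40.0, counting error only) and 5.4 with oxaliplatin (2.52 to 13.3). Its fitted log2 fold change was 4.09 ± 0.73 SE with cisplatin and 2.42 ± 0.75 SE with oxaliplatin, the latter 1.60 without oxaliplatin replicate 1. Because Ccl20 entered the test only through the libraries where it is high, these are given as a description, with no p value against control.

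Cxcl1 and Cxcl5 encode ligands of the neutrophil receptor CXCR2 and lie in the same cluster on chromosome 5, Cxcl5 (ENSMUSG00000029371) at chr5:90759360-90761624 and Cxcl1 (ENSMUSG00000029380) at chr5:90891241-90893115, both on the plus strand. Cxcl1 had 1267 and 1306 normalised counts in control, 1442 and 1369 with oxaliplatin, and 1888 and 2022 with cisplatin. The oxaliplatin libraries lay just above control and the cisplatin libraries well above both. Cxcl1 rose with cisplatin by 0.60 ± 0.08 SE on the log2 scale (DESeq2 adjusted p = 3.88e-13) and showed 0.13 ± 0.08 SE with oxaliplatin (adjusted p = 0.255, 95% interval of the log2 fold change -0.03 to 0.28).

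Cxcl5 was the second most abundant of the 10 by normalised counts. It had 4248 and 4011 in control, 4629 and 4380 with oxaliplatin, and 3879 and 3748 with cisplatin. The means lay on opposite sides of control, by log2 fold changes of 0.13 ± 0.06 SE with oxaliplatin (DESeq2 adjusted p = 0.0866) and -0.11 ± 0.06 SE with cisplatin (DESeq2 adjusted p = 0.112), and neither passed the threshold. Both passed it narrowly in edgeR, at adjusted p = 0.0495 and 0.0494.

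Cxcl10 (ENSMUSG00000034855, chr5:92346638-92348889, minus strand) encodes IP-10, the interferon-inducible ligand of CXCR3. It had 101 and 79.8 normalised counts in control, 244 and 224 with oxaliplatin, and 958 and 908 with cisplatin. The 3 groups did not overlap, and the cisplatin libraries stood well above the oxaliplatin libraries. Cxcl10 was 2.6-fold higher with oxaliplatin (log2 fold change 1.38 ± 0.18 SE) and 10.4-fold higher with cisplatin (3.37 ± 0.17 SE). It shares 133 exonic bases with Art3 on the opposite strand, which had at most 1.04 normalised counts in a library.

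Cxcl12 (ENSMUSG00000061353, chr6:117168535-117181367, plus strand) encodes SDF-1, the ligand of CXCR4, and is usually classed as homeostatic. It was the most abundant member by normalised counts and the member called lower with each drug, with 18119 and 18278 in control, 12744 and 12537 with oxaliplatin, and 12519 and 12644 with cisplatin. Both drug groups lay below control and overlapped each other. Cxcl12 fell to 0.695 of control with oxaliplatin (log2 fold change -0.53 ± 0.03 SE, DESeq2 adjusted p = 5.07e-56) and to 0.691 with cisplatin (-0.53 ± 0.03 SE, DESeq2 adjusted p = 8.74e-58). Cxcl12 made up 71.0% of the members' summed normalised counts in control, 54.2% with oxaliplatin and 51.2% with cisplatin. The sum of all 10 was 25635 in control, 23341 with oxaliplatin and 24568 with cisplatin, whereas the sum of the 9 genes other than Cxcl12 was 7437, 10700 and 11986.

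Cx3cl1 and Cxcl16 encode the chemokines that are made as transmembrane proteins with a mucin-like stalk and are shed by ADAM proteases. Cx3cl1 (ENSMUSG00000031778, chr8:94772009-94782427, plus strand) encodes fractalkine and had 340 and 330 normalised counts in control, 347 and 339 with oxaliplatin, and 501 and 507 with cisplatin. The oxaliplatin libraries overlapped the controls and the cisplatin libraries lay above both. Cx3cl1 rose with cisplatin (log2 fold change 0.59 ± 0.14 SE, DESeq2 adjusted p = 1.19e-04), and with oxaliplatin its log2 fold change was 0.03 ± 0.14 SE (adjusted p = 0.908, 95% interval -0.24 to 0.31).

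Cxcl16 (ENSMUSG00000018920, chr11:70453983-70459984, minus strand), whose product binds CXCR6 and also acts as a scavenger receptor, had 104 and 104 normalised counts in control, 171 and 168 with oxaliplatin, and 215 and 193 with cisplatin. The 3 groups did not overlap. It rose with oxaliplatin (log2 fold change 0.70 ± 0.22 SE, DESeq2 adjusted p = 0.00865) and with cisplatin (0.97 ± 0.22 SE, DESeq2 adjusted p = 8.09e-05). The oxaliplatin call was lost without control replicate 2 (adjusted p = 0.111), oxaliplatin replicate 2 (0.169), cisplatin replicate 1 (0.0611) or cisplatin replicate 2 (0.0589), and no adjusted p was given without control replicate 1 or oxaliplatin replicate 1. Cxcl16 shares 552 exonic bases with Zmynd15 on the opposite strand, which had 16.6 to 39.9 normalised counts, highest in a cisplatin library, and its part in the Cxcl16 values was not tested. Counts of 8 of the 10 members were whole numbers in all 6 libraries, the exceptions being Cxcl10 with 5 whole values and Cxcl16 with 4.

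**Figure D2:**
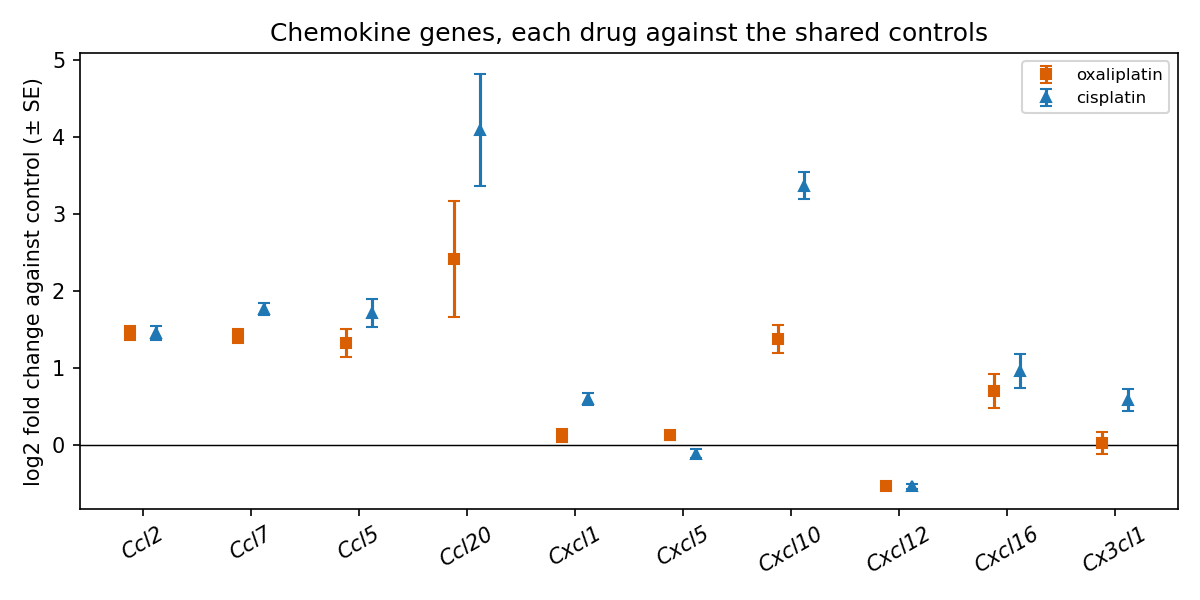
The log2 fold change against control (vertical axis, error bars SE) of each chemokine gene, with oxaliplatin as squares and cisplatin as triangles, 2 libraries a group and the same 2 control libraries in both. Ccl2 has 1.46 with either drug, Cxcl10 has 1.38 and 3.37, Ccl20 carries the widest error bars, and Cxcl12 has -0.53 with either drug.

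Against control, 5 members were called higher and 1 lower with oxaliplatin, and 8 were called higher, Ccl20 counted among them, and 1 lower with cisplatin. Over all genes tested the shares were 10.7% higher and 9.5% lower with oxaliplatin, and 15.7% higher and 12.4% lower with cisplatin. As the set was chosen in part on these rises, nothing is read from the members' counts against these shares. The same holds for the median and the overlaps given next, which are a description only. The members' median log2 fold change was 1.02 with oxaliplatin and 1.22 with cisplatin, beside a median of 0.00 over all genes in both. The libraries of drug and control did not overlap for 8 members that were higher and 1 that was lower with oxaliplatin, where 32.1% and 32.7% of all genes did so. With cisplatin they did not overlap for 8 higher and 2 lower, where 34.6% and 34.8% of all genes did so. Both comparisons share the control libraries.

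The drugs were compared directly at the same dose and time, as 1 pair of compounds. Between oxaliplatin and cisplatin 1 member was called higher with oxaliplatin and 4 were called lower, while 8.62% of all genes tested were higher and 11.3% lower. Groups did not overlap for 1 member higher and 7 lower with oxaliplatin, against 33.5% and 34.5% of all genes. The members' median log2 difference was -0.37, beside 0.00 over all genes. The drug libraries that served for choosing the set are also in this comparison.

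Cxcl10 differed the most with a narrow interval, by a log2 value of -1.99 ± 0.15 SE (95% interval -2.28 to -1.71), so that its level with oxaliplatin was 0.251 of that with cisplatin. Ccl20 differed by -1.67 ± 0.56 SE (-2.77 to -0.57), with no adjusted p from DESeq2 and 0.00748 from edgeR, and the value was -2.48 without oxaliplatin replicate 1 and -1.17 without oxaliplatin replicate 2. Cxcl1 was lower with oxaliplatin by -0.48 ± 0.08 SE (DESeq2 adjusted p = 2.25e-08), and Ccl7 by -0.35 ± 0.08 SE. Without cisplatin replicate 1 the Ccl7 call was lost, and 3 members were called. Cx3cl1 was lower by -0.55 ± 0.13 SE (DESeq2 adjusted p = 3.92e-04), a call that was lost on leaving out any drug-treated library, with adjusted p between 0.0576 and 0.0737.

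Cxcl5 was the member called higher with oxaliplatin, by 0.24 ± 0.06 SE (DESeq2 adjusted p = 2.22e-04), which was lost without oxaliplatin replicate 1 (adjusted p = 0.0937). Ccl5 differed by -0.39 ± 0.16 SE (95% interval -0.71 to -0.08), short of the threshold in DESeq2 (adjusted p = 0.0549) and past it in edgeR (adjusted p = 0.00336). No difference was called for Cxcl16, whose interval of -0.68 to 0.14 was wide. For Cxcl12 the difference was 0.01 ± 0.03 SE (adjusted p = 0.917, 95% interval -0.06 to 0.07), and for Ccl2 it was 0.00 with an interval of -0.16 to 0.16, which limits any difference between the drugs to a log2 value of 0.16 in Ccl2 and 0.07 in Cxcl12 at that confidence.

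**Figure D3:**
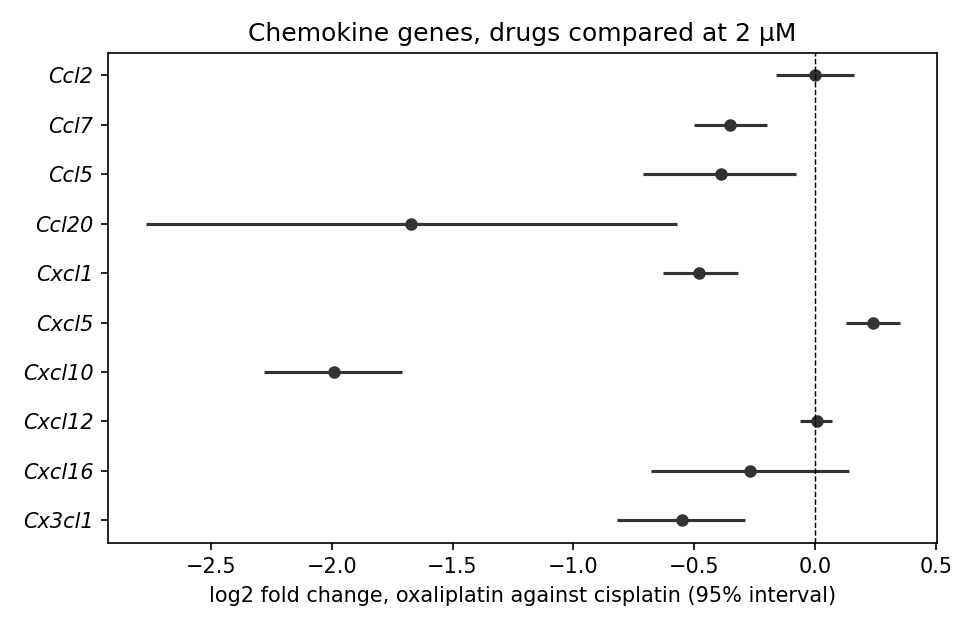
The log2 fold change of oxaliplatin against cisplatin (horizontal axis) for each chemokine gene, as a point with its 95% interval, from 2 libraries a drug at 2 µM. Cxcl10 and Ccl20 lie farthest to the left, Cxcl5 lies to the right at 0.24, and the intervals of Ccl2, Cxcl12 and Cxcl16 cross 0.

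Levels of different genes can be compared only per length. Per kilobase of the annotated coding transcript, the order in control cells was Cxcl12 (3234 ± 20.0 normalised counts per kb, SD, n = 2), Cxcl5 (2622 ± 107), Cxcl1 (1350 ± 29.2), Ccl2 (1035 ± 25.6), Ccl7 (660 ± 10.8), Ccl5 (220 ± 5.35), Cx3cl1 (101 ± 2.2), Cxcl10 (82.5 ± 13.5), Cxcl16 (38.6 ± 0.174) and Ccl20 (2.84 ± 0.905). No neighbours in that order overlapped between libraries. With oxaliplatin Cxcl5 (2860 ± 112) and Ccl2 (2843 ± 264) led, and their libraries overlapped. With cisplatin Ccl2 was first (2847 ± 19.1), then Cxcl5 (2421 ± 58.8), with Ccl7 (2256 ± 32.4) and Cxcl12 (2236 ± 15.8) overlapping behind them. Cxcl10 stood at rank 8 in control, 7 with oxaliplatin and 6 with cisplatin. The lower ranks were the same when all annotated exons served as the length, but the order at the top depended on it, and with cisplatin Ccl7 was then first and Ccl2 at rank 3.

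For Cxcl10, Cxcl1 and Ccl20, whose cisplatin libraries all lay above the oxaliplatin libraries, RefSeq promoters (GRCm38.p6, 250 bases before to 50 after the start) are shown because they hold matches to motifs of the factor families named above. The libraries of Cx3cl1 were ordered the same way, and its promoter held no match. The motifs searched on both strands were the κB motif, the IRF motif GAAANNGAA and the AP-1 motif TGANTCA, with matches in capitals. The promoter table held 5 of the 10 members, and Ccl2, Ccl5, Ccl7, Cxcl5 and Cxcl16 had no entry.
Cxcl10, chr5:92348840-92349139, minus strand: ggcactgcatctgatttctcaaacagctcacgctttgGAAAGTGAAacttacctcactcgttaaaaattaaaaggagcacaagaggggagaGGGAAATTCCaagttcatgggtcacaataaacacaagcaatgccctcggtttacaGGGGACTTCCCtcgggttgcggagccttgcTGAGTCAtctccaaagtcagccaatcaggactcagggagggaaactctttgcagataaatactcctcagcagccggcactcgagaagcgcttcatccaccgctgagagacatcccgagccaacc
Cxcl1, chr5:90890995-90891294, plus strand: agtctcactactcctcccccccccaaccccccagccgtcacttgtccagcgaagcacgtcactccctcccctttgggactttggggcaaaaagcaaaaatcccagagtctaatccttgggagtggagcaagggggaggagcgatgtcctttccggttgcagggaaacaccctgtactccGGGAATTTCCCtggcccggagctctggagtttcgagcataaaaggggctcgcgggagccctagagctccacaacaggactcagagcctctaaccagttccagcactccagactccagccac
Ccl20, chr1:83116516-83116815, plus strand: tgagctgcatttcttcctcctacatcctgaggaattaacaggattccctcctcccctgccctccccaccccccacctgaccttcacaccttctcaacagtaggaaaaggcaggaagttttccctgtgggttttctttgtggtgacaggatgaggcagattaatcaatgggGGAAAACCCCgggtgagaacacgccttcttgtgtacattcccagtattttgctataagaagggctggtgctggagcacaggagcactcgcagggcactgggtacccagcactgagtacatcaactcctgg

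Counted from the start site, the Cxcl10 window held κB matches at -159 to -150 and at -104 to -94, the latter made of overlapping matches on both strands, an IRF match at -213 to -205 and an AP-1 match at -74 to -68. The Cxcl1 window held κB matches on both strands at -71 to -61, and the Ccl20 window a κB match on the minus strand at -80 to -71. No match to these letters was found in the windows of Cxcl12 and Cx3cl1. The Cx3cl1 window was set by the RefSeq start at 94772180, and the GENCODE start lies upstream at 94772009. Most of the bases before that upstream start were therefore not searched. Of 32851 promoters of the same length, 8.46% held the κB motif, 8.56% the IRF motif and 7.81% the AP-1 motif. These matches are descriptions of letters, and binding was not measured in these libraries.

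AU-rich elements in the 3′ untranslated region (3′UTR) were counted as the pentamer ATTTA, since ZFP36-family proteins bind such repeats and promote decay of chemokine mRNA. Per kilobase of 3′UTR, Cxcl1 held 11.8 (7 pentamers) and Ccl20 8.57 (9 pentamers), above those of 99.3% and 98.5% of 12274 tested coding genes, whose median was 1.24 per kb. Ccl7 had 4.6 per kb, Cxcl5 4.5, Ccl2 3.64 and Cxcl10 2.74, all above that median. Cxcl16 had 1.41, Cxcl12 0.771 and Cx3cl1 0.534, and Ccl5 had none. The densest 25-base windows are shown for the members with the most, with pentamers in capitals, and for Ccl2 for contrast.
Cxcl1 3′UTR: tATTTATTTAtgtATTTATTTAttc
Ccl20 3′UTR: ATTTAatgttctgtttATTTAattg
Ccl2 3′UTR: aacttATTTAacttattgatgttat

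The genes that act on such mRNA, or on the membrane-bound chemokine proteins, changed in both directions. Of 11 tested genes for mRNA decay and protein processing, 2 were called higher and 4 lower with oxaliplatin, and 5 higher and 2 lower with cisplatin. The shares over all genes tested were 10.7% higher and 9.5% lower with oxaliplatin, and 15.7% and 12.4% with cisplatin. Nothing more is read from counts of so few genes. Zfp36l2, a decay factor, had 2456 and 2330 normalised counts in control, 2793 and 2726 with oxaliplatin and 3575 and 3582 with cisplatin, a rise by log2 0.21 ± 0.06 SE and 0.58 ± 0.06 SE. Its relative Zfp36l1 fell in both, by 0.29 and 0.16 on the log2 scale. Adam10, a sheddase of CX3CL1 and CXCL16, fell by 0.24 with oxaliplatin and had a log2 fold change of -0.09 with cisplatin, which was not called (DESeq2 adjusted p = 0.195). Mmp14, a membrane protease that can cleave chemokines, fell by 0.28 in both. The number called was 3 with oxaliplatin without control replicate 2, oxaliplatin replicate 1 or oxaliplatin replicate 2, Zfp36l2 being among those lost. With cisplatin it was 4 without control replicate 2 or cisplatin replicate 1 and 2 without cisplatin replicate 2, and the Zfp36l1 call was lost on leaving out any library.

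Other chemokine ligand genes were mostly silent. Of 28, 8 had 0 counts in all libraries and 19 never reached 10 counts, and 9 were tested. Among the neighbours of Ccl2 and Ccl7 on chromosome 11, Ccl11 reached at most 4 counts, Ccl8 6, Ccl1 2 and Ccl12 0. Next to Cxcl10, the CXCR3 ligand genes Cxcl9 and Cxcl11 reached at most 2 and 0 counts, where Cxcl10 reached 977. With oxaliplatin 2 of the 9 were called higher and 1 lower, and the counts were 2 and 1 with cisplatin as well. Among all genes tested 10.7% were called higher and 9.5% lower with oxaliplatin, and 15.7% and 12.4% with cisplatin.

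Ccl9, which encodes a monocyte attractant, lies 42400 bases from Ccl5 and had 147 and 162 normalised counts in control, 235 and 268 with oxaliplatin and 417 and 387 with cisplatin. Its log2 fold change was 0.70 ± 0.18 SE with oxaliplatin (DESeq2 adjusted p = 9.69e-04), 1.38 ± 0.18 SE with cisplatin (3.77e-13), and -0.68 ± 0.17 SE between the drugs (6.39e-04). Cxcl3, a CXCR2 ligand gene of the chromosome 5 cluster, had 29.1 and 28.6 in control, 58.5 and 64.5 with oxaliplatin and 64.7 and 61.4 with cisplatin. It rose by log2 1.09 ± 0.39 SE (DESeq2 adjusted p = 0.0233) and 1.13 ± 0.39 SE (0.0148). Cxcl15, lungkine, of the same cluster, fell by 0.48 and 0.64 on the log2 scale. Leaving out any library ended both Cxcl3 calls. Without control replicate 1 or either oxaliplatin replicate only 1 ligand gene was called with oxaliplatin. The Ccl9 call with oxaliplatin was lost without control replicate 1 or oxaliplatin replicate 2, and that of Cxcl15 without oxaliplatin replicate 1. The difference in Ccl9 between the drugs was not called without oxaliplatin replicate 1 or cisplatin replicate 1. Cxcl2 had 4.15 and 3.94 normalised counts in control, 10.2 and 6.14 with oxaliplatin and 16.7 and 14.3 with cisplatin. It had no adjusted p in DESeq2 and passed the filter through drug-treated libraries only. The remaining 5 genes were not called: Ccl25 (log2 fold changes 0.10 with oxaliplatin and -0.06 with cisplatin), Ccl27a (0.01 and 0.06), Ccl28 (0.14 and -0.12), Cxcl17 (-1.20 and -0.47) and Ppbp (-1.01 and -0.08).

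Of 23 chemokine receptor genes, 21 never reached 10 counts and none was called in DESeq2. The 2 tested were Ackr3, an atypical receptor that takes up CXCL12, with 45.7 to 85.3 normalised counts, and Ccr10, with 6.14 to 13.8. Unadjusted p values under 0.05 numbered 0 of 2 in each comparison, and edgeR called 0 as well.

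Of 16 genes for cytokines and receptors known to induce chemokines, 10 were tested. Tnf, Il1b, Ifng and Il17a had 0 counts in every library, and Ifnb1 had at most 2.05 normalised counts. Il6 was low, with 1.04 and 3.94 in control, 7.43 and 5.12 with oxaliplatin and 16.7 and 15.3 with cisplatin. Its groups did not overlap. Il6 passed the filter through the cisplatin libraries only, so these values are given as a description. With oxaliplatin 4 of the 10 were called higher and 2 lower, and with cisplatin 5 and 2. All genes tested gave 10.7% higher and 9.5% lower with oxaliplatin, and 15.7% and 12.4% with cisplatin. Tnfrsf1b, a TNF receptor gene, rose by log2 0.22 ± 0.07 SE and 0.44 ± 0.07 SE, and Tnfrsf1a, the other, fell by 0.28 and 0.36. Il17ra rose by 0.40 ± 0.10 SE and 0.45 ± 0.10 SE. Il6st, the shared signal transducer of the IL-6 family, rose by 0.38 ± 0.05 SE and 0.19 ± 0.05 SE. Of 6 calls with oxaliplatin, 3 were left without oxaliplatin replicate 1 or oxaliplatin replicate 2. Of 7 with cisplatin, 4 were left without control replicate 1, cisplatin replicate 1 or cisplatin replicate 2, with Il6st lost without control replicate 1 or cisplatin replicate 2. With oxaliplatin the Tnfrsf1b call was lost without either oxaliplatin or either control replicate, that of Tnfrsf1a without oxaliplatin replicate 1, and that of Il17ra without oxaliplatin replicate 2.

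The NF-κB, IRF and AP-1 genes were a list of 24, all tested. The list was chosen with earlier results of these data known, so its counts and median beside those of all genes are a description only. With oxaliplatin 11 were called higher and 0 lower in DESeq2, where 15 were higher and 0 lower at an unadjusted p under 0.05 and edgeR called 16 higher and 0 lower. With cisplatin 15 were called higher and 1 lower. Over all genes tested, DESeq2 called 10.7% higher and 9.5% lower with oxaliplatin, and 15.7% higher and 12.4% lower with cisplatin. The median log2 fold change of the list was 0.35 and 0.49, beside 0.00 over all genes, and leaving out oxaliplatin replicate 1 or control replicate 2 left 7 calls with oxaliplatin, while leaving out cisplatin replicate 1 left 9 with cisplatin.

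Tnfaip3, which encodes the NF-κB inhibitor A20, had 347 and 388 normalised counts in control, 784 and 723 with oxaliplatin and 1029 and 1106 with cisplatin. Its groups did not overlap, and it rose by log2 1.04 ± 0.12 SE and 1.54 ± 0.12 SE. Nfkb2, the p100 precursor gene, rose by 0.55 ± 0.06 SE and 0.80 ± 0.06 SE. The AP-1 genes Jun and Junb rose by 0.70 ± 0.10 SE and 0.58 ± 0.10 SE with oxaliplatin, and by 1.29 ± 0.10 SE and 1.26 ± 0.10 SE with cisplatin. The adjusted p of these 4 genes in DESeq2 lay between 5.90e-37 (Tnfaip3 with cisplatin) and 1.34e-07 (Junb with oxaliplatin). They were named for having the smallest adjusted p of the list against control, so low values follow from that choice.

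The gene called lower with cisplatin was Irf3, by log2 -0.38 ± 0.14 SE (DESeq2 adjusted p = 0.0277), a call lost on leaving out any library. The other IRF genes of the list were called higher with cisplatin. Irf1 rose by 0.31 ± 0.08 SE, Irf7 by 0.96 ± 0.39 SE and Irf9 by 0.44 ± 0.12 SE. The Irf7 call was also lost on leaving out any library, and those of Irf1 and Irf9 on leaving out some. None of these IRF genes was called with oxaliplatin in DESeq2, whereas edgeR called Irf1 and Irf9 higher there. In the direct comparison of the drugs DESeq2 called none of them, with adjusted p between 0.0928 (Irf3) and 0.316 (Irf7). There edgeR called Irf3 and Irf9. Irf1, Irf3, Irf7, Irf9 and Nfkb1 were named after their values were seen. Between the drugs 8.62% of all genes tested were called higher with oxaliplatin and 11.3% lower. Of the 24, 1 was called higher with oxaliplatin, Nfkb1 (0.27 ± 0.07 SE), and 7 lower. Among the 7 were Junb (-0.68 ± 0.10 SE), Jun (-0.58 ± 0.10 SE), Tnfaip3 (-0.50 ± 0.11 SE) and Nfkb2 (-0.25 ± 0.06 SE). Leaving out oxaliplatin replicate 1 left 5 calls and leaving out any other drug-treated library left 4, and those of Nfkb1, Nfkb2 and Tnfaip3 were each lost in some of these.

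**Figure D4:**
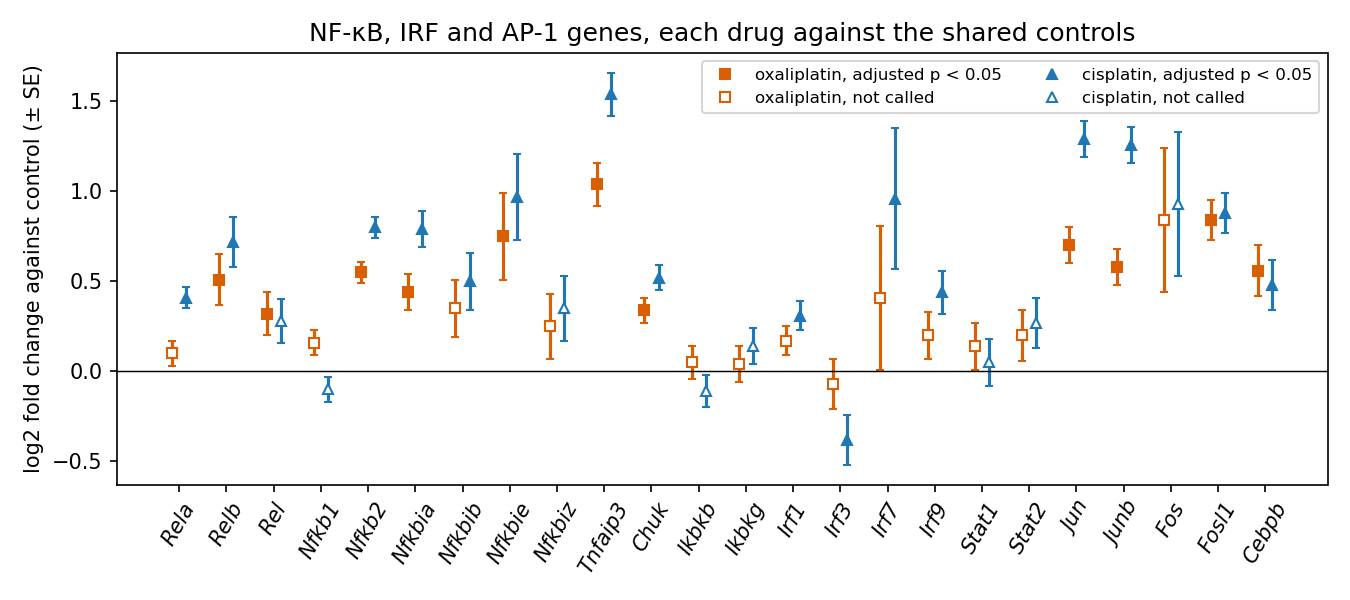
The log2 fold change against control (vertical axis, error bars SE) of 24 NF-κB, IRF and AP-1 genes, with oxaliplatin as squares and cisplatin as triangles, filled where DESeq2 called the gene at an adjusted p below 0.05. Tnfaip3 has 1.04 and 1.54, and Jun 0.70 and 1.29. With cisplatin Irf3 is called lower at -0.38, and Irf1, Irf7 and Irf9 are called higher.

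Genes most like Ccl2 and Cxcl10 across the 6 libraries were ranked over 10731 genes with a mean of at least 100 normalised counts, by the root mean square difference of log2 levels set to their control mean. Nearest to Ccl2 were Siglecg (0.12), Gata3 (0.14), Ankrd1 (0.16), Edn1 (0.17) and Plk2 (0.17). Their mean normalised counts in control, oxaliplatin and cisplatin cells were 185, 487 and 462 for Siglecg and 1440, 3276 and 3711 for Plk2. Nearest to Cxcl10 were Gm26917 (0.22), Rsad2 (0.84), Gm14296 (0.87), Ccl7 (0.92) and Ptgs2 (0.96), so that after Gm26917 the likeness was loose. Gm26917 had means of 2122, 4240 and 21297, and both predicted genes may share reads with copies elsewhere. Rsad2, an interferon-induced antiviral gene, had 56.9, 83.9 and 267, and Ptgs2, which encodes cyclooxygenase-2, had 1175, 2195 and 4110. Ccl7 was ranked as well after its values were seen, and its nearest gene was Ccl5 (0.07), followed by Ccl2 (0.19). These are resemblances of level over 6 libraries in 3 groups.

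Markers of other cells stayed low. Of 11 leukocyte markers, 9 never reached 10 counts, Adgre1 was at 0 and Ptprc had at most 1.02 normalised counts. None of the 11 was called in DESeq2 (0 at an unadjusted p under 0.05). Their summed level was 50.2 to 58.1 in control, 45.0 to 46.4 with oxaliplatin and 72.6 to 78.4 with cisplatin. Most of that sum came from the 2 tested markers, Cd68 and Csf1r. In control, oxaliplatin and cisplatin cells Cd68 had means of 38, 31.6 and 49.6 normalised counts, and Csf1r had 14.1, 10.1 and 18. For both, the cisplatin libraries lay above the oxaliplatin libraries. Of 4 endothelial markers, Kdr was tested and was called higher with both drugs (24.9 and 20.7, then 55.7 and 49.1, then 62.7 and 50.1 normalised counts), the list sum being 23.6 to 28.0, 51.2 to 62.2 and 54.2 to 71.6. The part of these markers in the chemokine values was not tested.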

How the data were processed

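Poly(A) RNA of 6 TRAMP-C2 samples was made into libraries with a kit that keeps strand, per the labels. The authors deposited expected counts per gene, in which reads that match several genes are divided among them. The submitters' processing notes name STAR 2.5.3a, RSEM 1.3.0 and GRCm38.p6, whereas a different counter is described in the methods of the study, and whether counting used strand is not given in the sources used here. Without strand, overlapping opposite genes cannot be separated. Totals were 21345312 to 24041767 counts.

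Gene identifiers were matched to GENCODE M21 (54409 of 54446). Counts were rounded, a gene was tested if 2 or more libraries held 10 or more counts of it (14956 genes), and DESeq2 1.42.0 in R 4.3.3 was fitted over the 6 libraries together, by group (two-sided Wald tests, median-of-ratios scaling, Benjamini-Hochberg within each comparison, threshold 0.05). The fit was also run on counts simulated from the control means and its own fitted spread, which cannot test whether its assumptions hold for these libraries. Alternatives were edgeR 4.0.16, other scalings and filters, a replicate block, the 4 libraries compared, a fold minimum of 1 on the log2 scale, and omission of each library in turn. No column of the table was left unused.

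The members and gene lists were chosen with earlier results of these data known. Named genes were the 10 members, other ligand genes with a group mean of at least 10 normalised counts, the 4 genes of each further list with the smallest adjusted p against control, and the 5 genes most like Ccl2 and Cxcl10. Promoters were RefSeq's. Transcript lengths and 3′UTRs came from GENCODE. Motif matches were counted on both strands in promoters and on the transcript strand in 3′UTRs. Results for some marker genes are not reported here.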

Additional observations from a re-analysis of the deposited data

How the results depend on the processing

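Of 387 values of single members under an alternative, 354 kept their direction and their side of the threshold or had no adjusted p, 11 lost a call, 11 gained it and 11 changed sign. The sign changes were in 2 differences between the drugs that were close to 0. That of Ccl2 was 0.00572 in edgeR, 0.00518 with TMM scaling, 0.0328 with total-count scaling, 0.000305 with no filter, 0.00327 with only the 4 libraries compared, and from -0.10 to 0.0887 when a library was left out. That of Cxcl12 was -0.00612 without oxaliplatin replicate 1 and -4.47e-05 without cisplatin replicate 1, with a highest value of 0.02 when a library was left out. With a minimum absolute log2 fold change of 1, the calls among members were 5 with cisplatin and 1 between the drugs, and among NF-κB, IRF and AP-1 genes 1 with oxaliplatin, 3 with cisplatin and 0 between the drugs, as this setting asks for more by construction. Leaving out each library gave 3 to 5 members called between the drugs, and 7 to 9, 9 to 14 and 4 to 7 of the NF-κB, IRF and AP-1 genes with oxaliplatin, with cisplatin and between the drugs. Where a group then had 1 library, it was assumed to vary like the others.

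With the replicate number as a block, 5 members were called with oxaliplatin (Cxcl16 was lost, adjusted p = 0.0722), 8 with cisplatin (Ccl20 had no adjusted p) and 5 between the drugs. The correlations of replicate differences between groups were 0.0715, -0.0477 and -0.191 over 10731 genes. They were small or negative, and cannot show whether libraries of the same replicate number were handled together. Counting noise alone would give a chi-square near 1 between replicates, and its mean over genes was 4.62, 2.81 and 2.8 in control, oxaliplatin and cisplatin cells. Depth limits Ccl20 and the genes under 10 counts.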
